A study of Homo sapiens with 4 samples.

Results

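A set of 10 genes of the epithelial-mesenchymal transition were examined in DU145, an established human prostate cancer cell line from a brain metastasis, for peaks of CTCF and of histone H3 acetylated at lysine 27 (H3K27ac). The members were all peaks of both lists that shared at least 1 base with the hg19 interval of one of these genes, widened by 20 kb on each side. These windows added up to 1248 kb and held 41 of the 86516 peaks, 23 of 50364 for H3K27ac and 18 of 36152 for CTCF. Each mark was measured by chromatin immunoprecipitation and sequencing in 1 DU145 library with no treatment named. The series also has input libraries of DU145 and of LNCaP, another established prostate cancer line, whose signal was not analysed here. With 1 library per mark no value has a replicate error and no difference was tested. Over the whole lists, the median summit rested on 23 fragments for H3K27ac and on 45 for CTCF.

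In the epithelial-mesenchymal transition, epithelial cells lose their junctions and polarity and take up a motile, mesenchymal state. CDH1 (E-cadherin) and EPCAM are adhesion proteins of epithelial cells, and ESRP1 is an RNA-binding protein that directs epithelial splicing. ZEB1, ZEB2, SNAI2 (Slug) and TWIST1 are transcription factors that drive the transition, and the ZEB and SNAI factors repress CDH1 through sites called E-boxes. CDH2 (N-cadherin), VIM (vimentin, an intermediate filament protein) and FN1 (fibronectin, a matrix protein) are products of mesenchymal cells. H3K27ac is a histone mark of promoters and enhancers in use. CTCF is a zinc finger protein that binds insulators and the anchors of chromatin loops.

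The sequences just upstream of the mesenchymal genes are shown to set the acetylated starts of VIM and ZEB1 beside those of ZEB2, CDH2 and FN1. They are the 250 bases before a RefSeq start (GRCh38.p14), written in the direction of transcription. The peaks are in hg19, so these letters could not be laid base by base on a peak. Capitals mark the E-box CACCTG (or CAGGTG on the other strand) and the GC box GGGCGG (or CCGCCC on the other strand), and neither motif shares letters with the other. Matches of the same motif that overlap each other were each counted. The table held 12 starts of 5 of the 10 genes, 7 of them of ZEB1. For ZEB1 the outermost start and the start with most E-boxes are shown, and for CDH2 the outermost of 2 starts.
VIM (chr10:17227991-17228240, plus strand): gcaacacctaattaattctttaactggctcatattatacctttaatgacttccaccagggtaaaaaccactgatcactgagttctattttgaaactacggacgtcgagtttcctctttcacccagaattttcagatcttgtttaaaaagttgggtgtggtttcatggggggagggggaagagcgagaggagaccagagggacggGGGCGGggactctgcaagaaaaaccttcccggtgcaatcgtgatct
ZEB1 outermost start (chr10:31318167-31318416, plus strand): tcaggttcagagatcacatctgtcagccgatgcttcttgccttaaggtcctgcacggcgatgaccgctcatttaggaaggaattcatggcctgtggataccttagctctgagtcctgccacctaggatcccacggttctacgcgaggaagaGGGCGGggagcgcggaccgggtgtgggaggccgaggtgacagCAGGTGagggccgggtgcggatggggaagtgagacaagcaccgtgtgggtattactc
ZEB1 inner start (chr10:31318966-31319215, plus strand): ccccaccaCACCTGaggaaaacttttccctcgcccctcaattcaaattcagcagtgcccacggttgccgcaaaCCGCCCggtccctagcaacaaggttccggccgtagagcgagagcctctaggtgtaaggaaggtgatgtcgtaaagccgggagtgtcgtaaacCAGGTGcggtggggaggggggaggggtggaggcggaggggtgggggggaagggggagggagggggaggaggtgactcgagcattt
ZEB2 (chr2:144520120-144520369, minus strand): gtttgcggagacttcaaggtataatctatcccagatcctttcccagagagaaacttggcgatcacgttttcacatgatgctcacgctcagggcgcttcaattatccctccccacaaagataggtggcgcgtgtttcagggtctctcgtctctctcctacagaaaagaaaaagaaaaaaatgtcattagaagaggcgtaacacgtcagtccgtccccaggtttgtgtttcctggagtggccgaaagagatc
CDH2 (chr18:28177131-28177380, minus strand): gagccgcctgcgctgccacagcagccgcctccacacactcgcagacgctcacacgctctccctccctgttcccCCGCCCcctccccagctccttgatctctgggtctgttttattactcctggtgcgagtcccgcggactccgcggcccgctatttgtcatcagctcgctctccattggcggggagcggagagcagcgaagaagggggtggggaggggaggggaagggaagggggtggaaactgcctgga
FN1 (chr2:215436069-215436318, minus strand): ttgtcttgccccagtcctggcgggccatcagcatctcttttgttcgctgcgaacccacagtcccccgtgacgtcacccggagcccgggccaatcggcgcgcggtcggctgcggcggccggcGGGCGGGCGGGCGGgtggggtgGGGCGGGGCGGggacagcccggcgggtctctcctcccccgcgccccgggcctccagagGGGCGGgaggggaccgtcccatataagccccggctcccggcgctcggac

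An E-box stood before 2 of the 12 starts, both of ZEB1. It began 57 bases before the outermost start, and 242 and 85 bases before the inner one. Of all 35116 RefSeq starts, 17.5% had an E-box in the same 250 bases and 2.53% had more than 1. FN1, without a peak of H3K27ac at its start, had the richest sequence of those shown, with 76.4% G and C, 32 CG dinucleotides and 6 GC boxes. VIM, with an acetylated start, had 46.0% G and C, 8 CG dinucleotides and 1 GC box. In G and C content and in CG dinucleotides the others shown lay between these. By GC boxes ZEB2 lay below VIM, with 0. ZEB1, also acetylated at its start, had 59.2% G and C with 15 CG dinucleotides (outermost) and 62.4% with 14 (inner). Without an H3K27ac peak at the start, CDH2 had 66.0% with 17 and ZEB2 48.0% with 12. The ZEB1 starts not shown ran from 42.4% with 7 to 73.6% with 27. The CDH2 start not shown had 42.0% with 4. How ZEB1 compares with CDH2 therefore depends on the starts shown. The medians over all RefSeq starts were 58.0% and 11 dinucleotides, and 42.6% of starts had a GC box. Of all starts, 2.22% had at least the 6 GC boxes of FN1 and 9.52% at least its 32 dinucleotides. A match of letters does not show a bound site.

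Acetylation lay in all 3 epithelial windows and in 3 of the 7 mesenchymal windows. CDH1 alone held 12 of the 23 H3K27ac peaks. EPCAM and VIM held 3 each, ESRP1 and ZEB1 2 each, and ZEB2 held 1, while CDH2, SNAI2, TWIST1 and FN1 held 0. Windows ran from 42.0 kb (TWIST1) to 266 kb (CDH2), so counts are also given per length. The epithelial windows together had 5.61 H3K27ac peaks per 100 kb (17 in 303 kb) and the mesenchymal windows 0.635 (6 in 945 kb), against 1.64 over the assembled chromosomes. Without CDH1, the other 2 epithelial windows had 3.03 per 100 kb. That value rests on 5 peaks, most of them beyond the far ends of the genes. Gene by gene the groups overlapped. VIM had more H3K27ac peaks per 100 kb than EPCAM (5.17) and ESRP1 (1.87), and fewer than CDH1 (8.70). ZEB1 (0.797), ZEB2 (0.568) and the 4 mesenchymal windows without a peak lay below all 3 epithelial ones. The pooled mesenchymal value is weighted towards the long windows of CDH2 (266 kb), ZEB1 (251 kb) and ZEB2 (176 kb). For scale, 37.3% of all 100 kb bins of the genome had an H3K27ac peak and 53.9% a CTCF peak. Those bins include stretches without genes, so gene windows are no even match for them. CTCF peaks were spread more evenly, with 6 in the epithelial windows (1.98 per 100 kb) and 12 in the mesenchymal ones (1.27 per 100 kb). The genome-wide CTCF density was 1.17 per 100 kb. ZEB2 was the only one of the 10 windows without a CTCF peak, and 32.9% of genome stretches of its length had none.

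**Figure D1:**
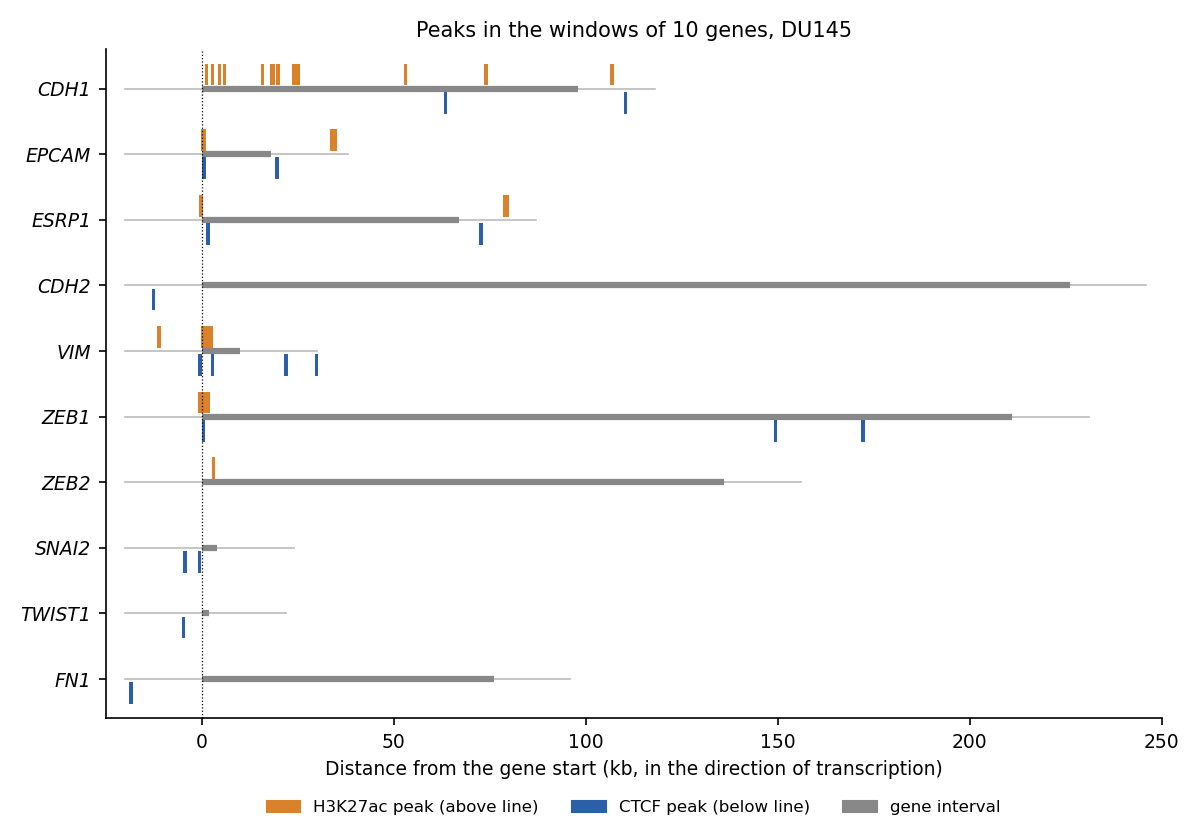
Peaks of H3K27ac (above the line) and CTCF (below the line) in the windows of the 10 genes, by distance in kb from the gene start in the direction of transcription. Grey bars are the gene intervals, thin lines the widened windows, and narrow peaks are drawn at a minimum width; 12 H3K27ac peaks lie in the CDH1 window and 0 in those of CDH2, SNAI2, TWIST1 and FN1.

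The CDH1 window (interval chr16:68771000-68869000) held many acetylated peaks of modest height, and the higher ones lay inside the gene and beyond its end rather than at its start. Here and below, the start is the upstream edge of the interval, which is rounded to 1 kb, and fold enrichment is the authors' value at the summit. The peak nearest to the start, chr16:68771925-68772598, began 925 bases downstream and had a fold enrichment of 4.36 from 18 fragments (exact Poisson 95% interval 10.7 to 28.4). That fold stood at the 46.6th percentile of the H3K27ac list. The next 4 peaks inside the gene, with summits 2.82 to 15.8 kb from the start, had folds from 3.48 to 3.83 and 15 to 19 fragments. Higher peaks followed at 18.8 kb (1267 bases wide, the widest of the window, fold 6.65, 47 fragments), 19.8 kb (fold 5.12, 36 fragments) and 24.2 kb. The last of these, chr16:68794491-68795434, had a fold of 12.3 from 53 fragments (39.7 to 69.3), at the 84.0th percentile. Its interval does not overlap that of the peak at the start.

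Farther into CDH1, acetylated peaks became sparse. A peak next to the one at 24.2 kb had a fold of 3.83, and 2 single peaks at 53.0 and 74.0 kb had folds of 3.61 and 3.35. The strongest H3K27ac peak of the window, chr16:68877381-68878297, lay beyond the end of the interval, with its summit 107 kb from the start. It had a fold of 26.1 from 127 fragments (105.9 to 151.1) and stood at the 96.2nd percentile. TANGO6 is the next protein-coding gene on that side in RefSeq order, and the peak was not assigned to either gene. CTCF had 2 peaks in the window. One lay inside the gene at 63.4 kb (fold 9.50, 49.8th percentile) and one beyond its end (fold 8.04), and neither touched an H3K27ac peak. The nearest CTCF peak to the start was outside the window, 32.4 kb upstream, with a fold of 22.6.

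**Figure D2:**
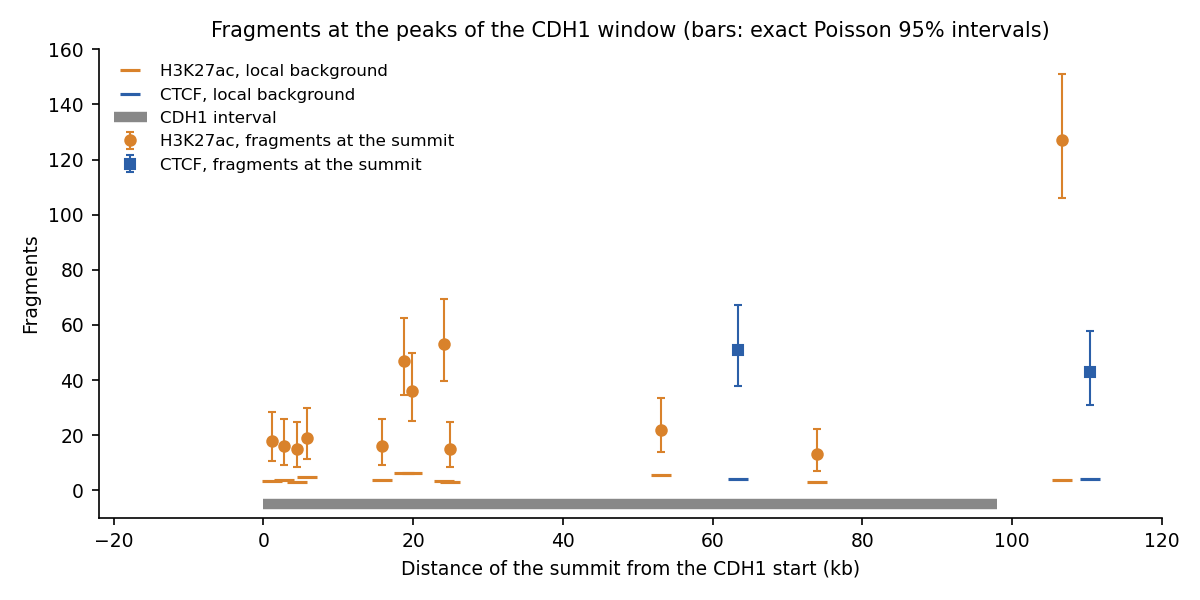
Fragments at each summit of the CDH1 window against its distance in kb from the CDH1 start, with exact Poisson 95% intervals as bars, short dashes for the local background and a grey bar for the gene interval. H3K27ac summits near the start rest on 15 to 19 fragments, the one at 24.2 kb on 53, and the one beyond the gene on 127.

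When neighbouring H3K27ac peaks were merged into domains, at the joining distance in common use for super-enhancers, the first 9 peaks of CDH1 formed 1 domain of 24.4 kb. Only 5.34% of the 18213 domains of the list had as many peaks. Scored by fold enrichment times width in kb, summed over its peaks, the CDH1 domain came to 36.0 (rank 3773). This was slightly below the domains at ZEB1, with 2 peaks in 3.04 kb (40.5, rank 3364), and at VIM, with 3 peaks in 14.3 kb (38.6, rank 3532). The 9 peaks of CDH1 held 6178 bases, the 2 of ZEB1 2858 and the 3 of VIM 3260.

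EPCAM (interval chr2:47596000-47614000) had a single broad acetylated peak over its start. The peak chr2:47595793-47597233 was 1441 bases wide and had a fold of 10.2 from 65 fragments (50.2 to 82.8), at the 80.0th percentile. A narrow CTCF peak of 180 bases lay wholly inside it, with a fold of 4.03 from 21 fragments (13.0 to 32.1), at the 3.74th percentile of the CTCF list. The other CTCF peak, chr2:47615382-47615756, sat just past the far end of the gene with a fold of 13.1 from 71 fragments (69.3rd percentile). The 2 other H3K27ac peaks of the window lay outside the gene, and one of them had a higher fold than the peak at the start.

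ESRP1 (interval chr8:95653000-95720000) carried both marks at its start, side by side. The H3K27ac peak chr8:95652708-95653026 was only 319 bases wide, with a fold of 5.17 from 25 fragments (16.2 to 36.9), at the 57.7th percentile. A CTCF peak, chr8:95654436-95654808, followed with its summit 1641 bases past the end of the acetylated peak. Its fold of 16.0 from 69 fragments (53.7 to 87.3) was the highest CTCF value among the members (80.3rd percentile). Inside the rest of ESRP1 there was no peak of either mark. Beyond the far end lay another CTCF peak (fold 7.81) and a broad H3K27ac peak of 1481 bases (fold 12.1, 68 fragments), on the side of the neighbouring gene DPY19L4.

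Among the 4 transcription factor genes, ZEB1 had a strongly acetylated start. Its H3K27ac peaks were chr10:31607077-31607955, with a fold of 17.5 from 72 fragments (56.3 to 90.7), and chr10:31608140-31610118, with a fold of 12.7 from 52 fragments (38.8 to 68.2). They stood at the 90.7th and 84.6th percentiles and together spanned 3042 bases around the start (interval chr10:31608000-31819000), broken by a gap of 184 bases. The interval of the first peak's fragments overlaps that of the second. A CTCF peak of 164 bases lay inside the second one, with a fold of 5.47 from 18 fragments (10.7 to 28.4), at the 16.6th percentile. No other H3K27ac peak was found in the 251 kb window. CTCF peaks lay deep in the gene, at 149 kb (fold 4.12) and 172 kb (fold 10.6, 56.2nd percentile).

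ZEB2, SNAI2 and TWIST1 had few or no H3K27ac peaks. ZEB2 (interval chr2:145142000-145278000) had 1 narrow H3K27ac peak, chr2:145274850-145275148, 299 bases wide, whose near edge lay 2.85 kb inside the gene. Its fold was 4.31 from 17 fragments (9.9 to 27.2), at the 45.2nd percentile. The nearest CTCF peak was 357 kb from the ZEB2 start. That start lay in a stretch of 1590 kb without CTCF, and 0.255% of all gaps between CTCF peaks were as long. Gaps of that length or more made up 10.1% of the bases the list spans.

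SNAI2 (interval chr8:49830000-49834000) had CTCF peaks but no H3K27ac peak. A CTCF peak lay 389 bases upstream of the start with a fold of 4.90 from 20 fragments (12.2 to 30.9), at the 11.5th percentile. A stronger one, 4.15 kb upstream, had a fold of 8.21 from 80 fragments (63.4 to 99.6). The nearest H3K27ac peak was 131 kb away, past the far end of the gene. TWIST1 (interval chr7:19155000-19157000) had a single CTCF peak, 4.72 kb upstream, with a fold of 4.27 from 27 fragments (17.8 to 39.3), at the 5.28th percentile. Its nearest H3K27ac peak was 591 kb away.

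VIM had the widest acetylated peak among the members, with a CTCF peak upstream of it and another overlapping its downstream end. In the interval chr10:17270000-17280000, H3K27ac peaks chr10:17270119-17270444 (fold 3.19, 16 fragments) and chr10:17270549-17272914 (fold 14.8, 80 fragments, 63.4 to 99.6) were separated by 104 bases. The second was 2366 bases wide and stood at the 87.6th percentile. On the upstream side, the CTCF peak chr10:17269358-17269735 had its summit 665 bases before the acetylated stretch and a fold of 5.83 from 25 fragments (20.6th percentile). On the other side, chr10:17272507-17272973 overlapped the wide peak by 408 bases and had a fold of 15.2 from 72 fragments (56.3 to 90.7), at the 77.6th percentile. VIM also had the most CTCF peaks of the 10 windows (4, or 8.00 per 100 kb), in one of the shorter windows, and 1.81% of genome stretches of its length had at least as many. The other two lay 21.9 and 29.9 kb from the start, beyond the gene, with folds of 5.35 and 9.13. A further H3K27ac peak lay 11.1 kb upstream (fold 4.22).

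CDH2 and FN1, the other mesenchymal products, had no H3K27ac peak in their windows. CDH2 (interval chr18:25531000-25757000) had 1 CTCF peak, with its near edge 12450 bases upstream of the start, with a fold of 7.70 from 58 fragments (44.0 to 75.0). Its nearest H3K27ac peak lay 986 kb away. FN1 (interval chr2:216225000-216301000) likewise had 1 CTCF peak, 18.2 kb upstream, with a fold of 11.0 from 59 fragments (44.9 to 76.1). The nearest H3K27ac peak to the FN1 start was 123 kb downstream, past the far end of the gene, and was a strong one (fold 20.6, 93.2nd percentile).

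**Figure D3:**
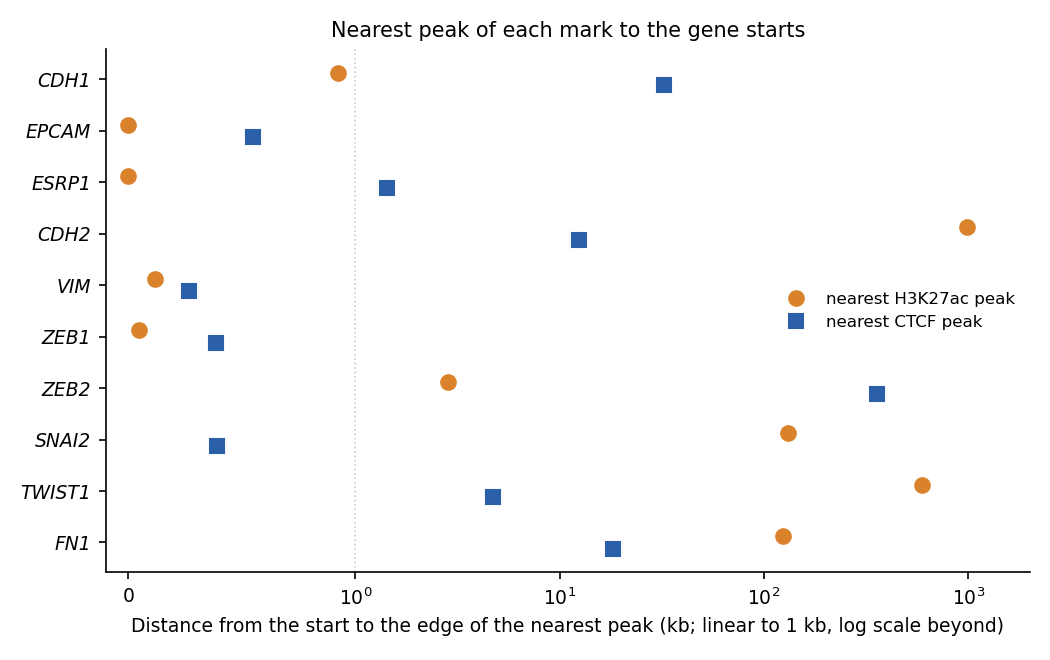
Distance in kb from each gene start to the edge of the nearest H3K27ac peak (circles) and the nearest CTCF peak (squares), linear up to 1 kb and on a log scale beyond. For CDH2, SNAI2, TWIST1 and FN1 the nearest H3K27ac peak is 123 to 986 kb away.

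The 4 genes without an H3K27ac peak in their windows lay in long stretches without such a peak. The stretch around the start measured 3061 kb for SNAI2, 2506 kb for CDH2, 1198 kb for TWIST1 and 667 kb for FN1. The gap on the upstream side of the ZEB2 peak was 2116 kb. The median gap between H3K27ac peaks was 4.12 kb, and 0.197% of gaps were as long as that of SNAI2 and 1.46% as long as that of FN1. Long gaps take up much of the genome, however. Gaps at least as long as those of SNAI2, CDH2, TWIST1 and FN1 made up 17.7%, 21.4%, 35.7% and 45.7% of the bases spanned by the list. Stretches of the genome cut to the length of each window had no H3K27ac peak in 46.1% (CDH2), 60.1% (FN1), 75.4% (SNAI2) and 76.0% (TWIST1) of cases. By the same measure, 5.16% had at least the 12 peaks of CDH1, 10.5% the 3 of VIM, 12.0% the 3 of EPCAM, 27.7% the 2 of ESRP1, 43.6% the 2 of ZEB1 and 47.0% the 1 of ZEB2.

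A missing peak means that no region passed the authors' threshold. At the lowest local background, the smallest H3K27ac peaks that were listed had 10 fragments, so weaker acetylation was not detectable at this depth. In the windows without an H3K27ac peak, the local background solved from the CTCF peaks was 2.75 times the genome-wide level at CDH2, 1.34 and 3.67 times at SNAI2, 2.29 times at TWIST1 and 1.83 times at FN1. Over the whole CTCF list the median local background was 3.00, against a genome-wide level of 2.18. These values hold only at the CTCF peaks themselves. They do not show how well the windows were covered in the H3K27ac library.

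Counting peaks within 2 kb of a start, 5 genes had H3K27ac (CDH1, EPCAM, ESRP1, VIM and ZEB1) and 5 had CTCF (EPCAM, ESRP1, VIM, ZEB1 and SNAI2). Both marks were present at 4 starts, H3K27ac without CTCF at CDH1, CTCF without H3K27ac at SNAI2, and neither at CDH2, ZEB2, TWIST1 and FN1. The share of all gene starts with either mark was not measured, for lack of an hg19 annotation. Whether these counts are usual for gene starts therefore cannot be told. The 3 epithelial genes all had an acetylated start, but their highest peaks there had folds of 4.36, 5.17 and 10.2, against 14.8 at VIM and 17.5 at ZEB1. The order of these 5 starts by fragments was CDH1 (18), ESRP1 (25), EPCAM (65), ZEB1 (72) and VIM (80). The intervals of the neighbours CDH1 and ESRP1 overlapped, as did those among EPCAM, ZEB1 and VIM, whereas those of ESRP1 and EPCAM did not.

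**Figure D4:**
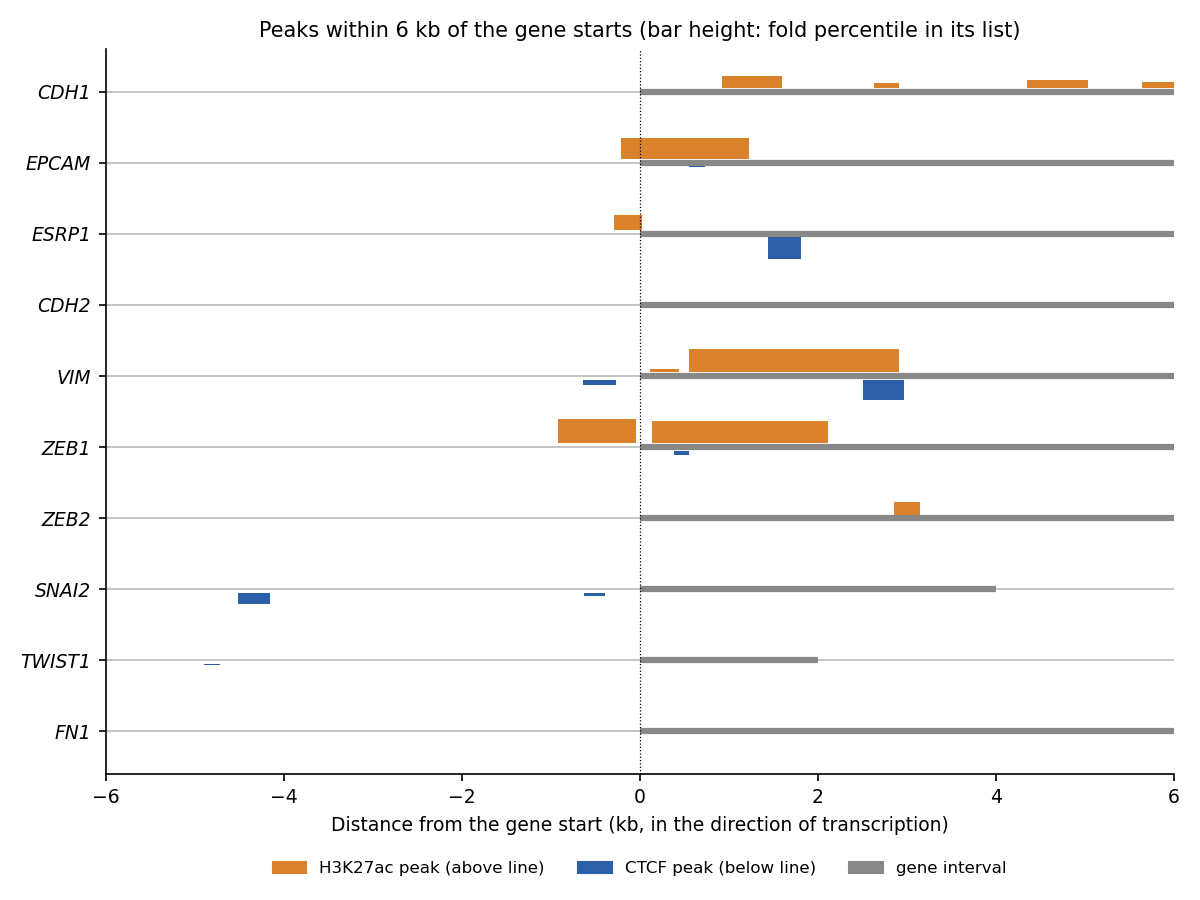
Peaks within 6 kb of the 10 gene starts, drawn to scale along the axis in kb, with bar height in proportion to the percentile of fold enrichment in the peak's own list (H3K27ac above, CTCF below). VIM and ZEB1 have tall and wide acetylated bars, ESRP1 a tall CTCF bar, and CDH2 and FN1 no bar.

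CTCF at the starts was mostly low in rank. Of the 5 CTCF peaks at starts, those of EPCAM, SNAI2, ZEB1 and VIM stood between the 3.74th and 20.6th percentiles of the list by fold. Only that of ESRP1 ranked high. Over all 18 members the median CTCF fold was 7.92 against 9.52 for the whole list, 5 stood above the list's median, and 0 were above its 90th percentile. Median CTCF width was 256.5 bases against 276 for the list. For H3K27ac, the median fold of the 23 members was 4.36 against 4.55 for the list, with 11 above the list's median and 2 above its 90th percentile (at ZEB1 and beyond CDH1). Their median width was 685 bases against 566. By place, the 7 H3K27ac peaks at starts had a median fold of 10.2 and the 11 inside the genes 3.83, of which 10 belonged to CDH1. The 4 peaks beyond the far end of a gene had the highest median fold, 14.3. All 4 lay in epithelial windows, with folds from 3.76 to 26.1. The 1 upstream peak had 4.22.

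**Figure D5:**
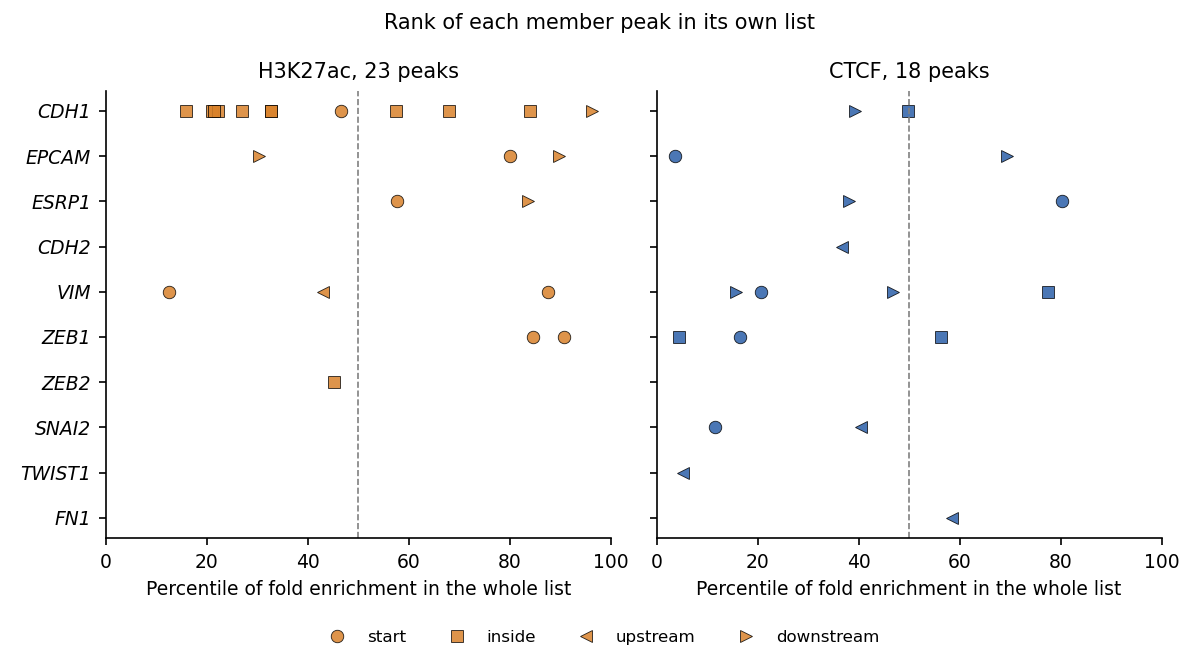
Percentile of fold enrichment of every member peak within its own list, by gene, for 23 H3K27ac peaks (left) and 18 CTCF peaks (right), with the list's median as a dashed line and symbols for the place of the peak. H3K27ac members spread on both sides of the median, with 11 above it, and 5 of 18 CTCF members lie above it.

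The marks met in 3 places, over the starts of EPCAM and ZEB1 and at the downstream side of the VIM peak, and each CTCF summit there lay inside the H3K27ac peak. This was 3 of 23 H3K27ac peaks, 13.0% (Wilson 95% interval 4.54 to 32.1), against 10.1% over the whole list. In the other direction it was 3 of 18 CTCF peaks, 16.7% (5.84 to 39.2), against 14.2% over the whole list. Both intervals hold the share of the list, but they treat the peaks as independent, and 12 of the 23 H3K27ac peaks came from CDH1. Both shares also count the same 3 places, so no difference was tested with them. None of the 12 H3K27ac peaks of the CDH1 window overlapped CTCF.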

How the data were processed

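Chromatin of DU145 cells was immunoprecipitated for CTCF and for H3K27ac, with 1 library each. The submitters' processing notes name Bowtie, MACS2 and build hg19. Their versions, their settings and the choice of input were not given in the sources used here. For each peak the authors deposited a fold enrichment (a linear ratio over local background), p and q values on the −log10 scale, and a score, which was not used further.

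Members and gene lists were chosen with earlier results of these data known. All 10 genes are named, with the strongest peaks, the peaks nearest to the start and the widest H3K27ac peak of each, except that 2 EPCAM peaks are not reported in detail here. Strands came from the RefSeq promoter table for 5 genes and from textbook knowledge for the others. The list of further pathway genes was not used, since it needed an hg19 annotation. Percentiles rank fold enrichment within 1 list. Fragment numbers at summits were solved from the fold and the −log10 p of each peak the authors deposited, as whole numbers within a tolerance of 0.002, on a scale of 0.911 for CTCF and 1 for H3K27ac, which gave a solution for 100% of both lists. The solver was tested on simulated data. Intervals are exact Poisson or Wilson intervals at 95% and cover counting error only. Domains joined H3K27ac peaks up to 12.5 kb apart. Alternatives changed the peak threshold, the window, the overlap rule, the distance to the start and this joining distance. Python 3.11.15, scipy 1.17.1 and pandas 2.3.3 were used.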

Additional observations from a re-analysis of the deposited data

How the results depend on the processing

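Of 57 alternatives, 40 kept a count within 1.5 times, or a share within its Wilson 95% interval, and 17 did not. For shares of bases that interval counts each base as independent, so small shifts fall outside it. Of the 57, 52 were planned, and the 5 without the CDH1 window were chosen after seeing the data. With a −log10 q of 10 or more there were 12 H3K27ac peaks (23 in the report), 1.12% of window bases in them (1.52% in the report) and 2.64 per 100 kb in the epithelial windows. CTCF then stood at 1 start, that of ESRP1. With only peaks at or above the median fold of their list there were 11 H3K27ac and 5 CTCF peaks, 1.07% of bases, 2.64 and 0.318 H3K27ac peaks per 100 kb in epithelial and mesenchymal windows, and again 1 start with CTCF. These lists hold fewer peaks by construction. EPCAM, ESRP1, VIM and ZEB1 kept an acetylated start in both, and CDH1 did not. With no widening, 7 CTCF peaks were left, 42.9% of them with H3K27ac, and 1.55% of bases were acetylated. Widening by 50 kb gave 1.35%. Without CDH1 there were 11 H3K27ac peaks, 1.00% of bases and 3.03 per 100 kb in the epithelial windows. With 5 kb to the start, ZEB2 joined the acetylated genes and TWIST1 those with CTCF. The smallest listed peaks rest on 10 fragments, which limits what can be seen.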
